A study of Mus musculus with 8 samples.

Results

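The genes described here are 35 genes of the unfolded protein response, taken by name from the 42416 genes in the count files: chaperones and disulfide isomerases of the endoplasmic reticulum (ER), ER-associated degradation factors, stress sensors and integrated stress response genes. They were measured by RNA sequencing of sorted mouse distal convoluted tubule fragments, with 1000 fragments per library. The 4 KO libraries came from animals with Cnb1fl Tg/Tg, a floxed calcineurin B subunit (gene symbol Ppp3r1). The 4 Control libraries came from animals labelled Cnb1fl wt. Every animal of both groups also carried the Cre transgene NCCcre Tg/+, whose name refers to the thiazide-sensitive cotransporter (NCC), and the reporter TOMATO Tg/+. All received tamoxifen by gavage on 5 days, each animal 2 mg daily, and tubules were taken 3 weeks after induction. Age and sex are not given in the labels. The comparison addresses how these tubules differ when calcineurin is deleted, a question raised by the renal effects of drugs that inhibit it.

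The unfolded protein response is the transcriptional programme by which a cell adjusts folding capacity to the load of new protein entering the ER. The sensors IRE1 (Ern1), ATF6 (Atf6) and PERK (Eif2ak3) are held in check by the chaperone BiP (Hspa5). When active, ATF6 and the IRE1 product XBP1 raise chaperones and degradation factors, while PERK slows translation and raises ATF4, which drives the integrated stress response and its factor CHOP (Ddit3). Much of this control is by cleavage, splicing and phosphorylation, which read counts per gene do not show.

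Total counts ranged from 18161442 to 45150953 in KO libraries and from 19911826 to 42389558 in Control libraries. Levels below are counts scaled to a common library size (CPM) with library sizes adjusted by the trimmed mean of M values (TMM), unless TPM, which is also per exon length, is named. The targeted gene Ppp3r1 did not separate the groups, at 86.2 ± 10.8 CPM in KO and 97.4 ± 9.87 CPM in Control (SD, n = 4 each, edgeR adjusted p = 0.548), so gene-level counts do not check the genotype labels. The 12 segment markers summed to 7408 to 12910 CPM in KO and 19530 to 24320 CPM in Control. Of them 1 rose and 6 fell by edgeR at an adjusted p under 0.05 (58.3%, beside 2.21% of all genes tested). Mean levels in KO and Control were 2702 and 6943 CPM for Egf, 491 and 3147 CPM for Calb1, and 640.5 and 2405 CPM for Kl. Emx1, Sall3 and Erbb4 did not pass, at log2 fold changes (KO over Control) of -0.11, 0.17 and 0.42. The segment marker Slc12a3 stood at 3911 to 8074 CPM in KO and 5651 to 8049 CPM in Control. Summed proximal tubule markers (9 genes) reached 3730 to 9893 CPM in KO and 6405 to 14920 CPM in Control, and thick ascending limb markers (6 genes) 2739 to 5475 CPM in KO and 7466 to 12220 CPM in Control, so the libraries also hold RNA of neighbouring segments. Kap made up most of the proximal sum in every library, and Umod most of the thick ascending limb sum. Umod stood at 2427 to 4545 CPM in KO and 6028 to 10960 CPM in Control. No other gene of the thick ascending limb list was without overlap between the groups. Leukocyte markers (6 genes) summed to 25.8 to 78.0 CPM in KO and 17.3 to 24.2 CPM in Control. Of this sum Csf1r alone held 12.4 to 72.2 CPM in KO and 6.02 to 7.79 CPM in Control. Among the 4 leukocyte markers tested, 2 had a positive and 2 a negative fold change, and 0 passed by edgeR. Connecting tubule and collecting duct markers (7 genes) summed to 157 to 375 CPM in KO and 353 to 606 CPM in Control. All 7 of the collecting duct list had a negative fold change with an unadjusted p under 0.05, and 0 passed after adjustment by edgeR. In such bulk samples, fewer cells of a type and less RNA per cell cannot be told apart. Mitochondrially encoded transcripts took 15.9% ± 2.10 of counts in KO and 18.4% ± 0.968 in Control (SD, n = 4 each), with an exact two-sided permutation p of 0.0857 where 0.0286 is the smallest possible.

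Most of the unfolded protein response genes were well expressed in both groups, and none passed the test between them. Together they held 2568 to 4122 TPM in KO libraries and 2721 to 3392 TPM in Control libraries. By mean level per exon length, 10 of the 35 lay at 100 TPM or more in KO and 10 in Control, and 20 lay between 10 and 100 TPM in each group. Calreticulin (Calr), a lectin chaperone that also stores calcium, led with 515.5 ± 121 TPM in KO and 445 ± 71.9 TPM in Control. The disulfide isomerase Pdia3 (383 ± 61.8 TPM in KO, 354 ± 28.6 TPM in Control), Hspa5 (367.0 ± 128 TPM in KO, 348 ± 66.6 TPM in Control) and the ER form of HSP90, Hsp90b1 (338 ± 80.0 TPM in KO, 302 ± 31.5 TPM in Control), came next. Pdia3 exceeded Hsp90b1 in all 8 libraries, while the place of Hspa5 among them differed from library to library. TPM carry no TMM adjustment, so they serve here to order the genes, and differences between groups are given on the CPM scale, where some, such as that of Hspa5, have the other sign. At the other end stood the sensor Ern1 (9.12 ± 0.884 TPM in KO, 7.81 ± 2.08 TPM in Control), the asparagine synthetase Asns (5.19 ± 2.31 TPM in KO, 4.92 ± 1.47 TPM in Control), Derl3 (0.554 ± 0.163 TPM in KO, 1.30 ± 0.739 TPM in Control) and the stress genes Trib3 and Chac1, both under 1 TPM in each group.

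**Figure D1:**
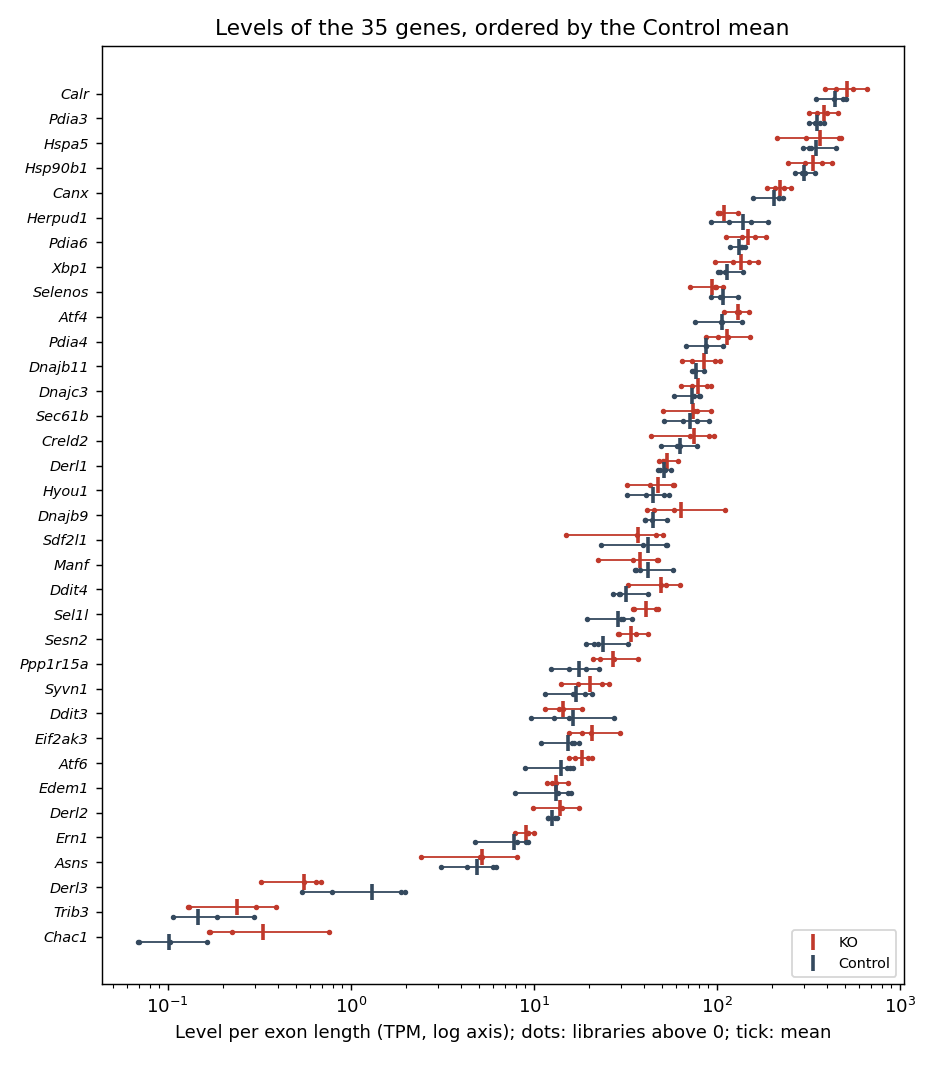
Level of each of the 35 genes in TPM (log axis), with KO libraries in red above Control libraries in blue; dots are libraries above 0 and the upright tick is the mean of 4. Levels run from under 1 TPM for Chac1 and Trib3 to 515.5 TPM in KO and 445 TPM in Control for Calr, and the ranges of the groups overlap for most genes.

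Of the 33 genes with enough counts to be tested, 0 were higher and 0 lower in KO by edgeR's quasi-likelihood test at an adjusted p of 0.05, against 2.21% of all 14268 genes tested (1.34% higher and 0.876% lower). At an unadjusted p under 0.05 there were 5 of 33, or 15.2%, beside 13.9% of all genes. The KO and Control libraries did not overlap for 2 of 33, or 6.06%, beside 9.44% of all genes. Over the 33 genes together, all 3 shares were near or below the background. DESeq2 also called 0, and limma-voom called 1, Herpud1. The median log2 fold change (KO over Control) was -0.12 over the 33 genes and -0.02 over all genes tested. The sign of small differences depended on the scaling. With TMM 11 were positive and 22 negative, and with plain library totals, which moved the median of all genes to 0.13, 21 were positive and 12 negative. Relative to the median of all genes, the median of the 33 lay at -0.10 with TMM and at -0.09 with library totals. It lay at -0.02 without KO replicate 3 and at -0.03 without Control replicate 3. The 95% interval of the fold change lay wholly within 2-fold for 29 of the 33 genes and within 1.5-fold for 21. The exceptions to 2-fold were Sdf2l1, Derl3, Ddit3 and Asns. A difference inside these intervals could not be resolved with 4 libraries per group.

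**Figure D2:**
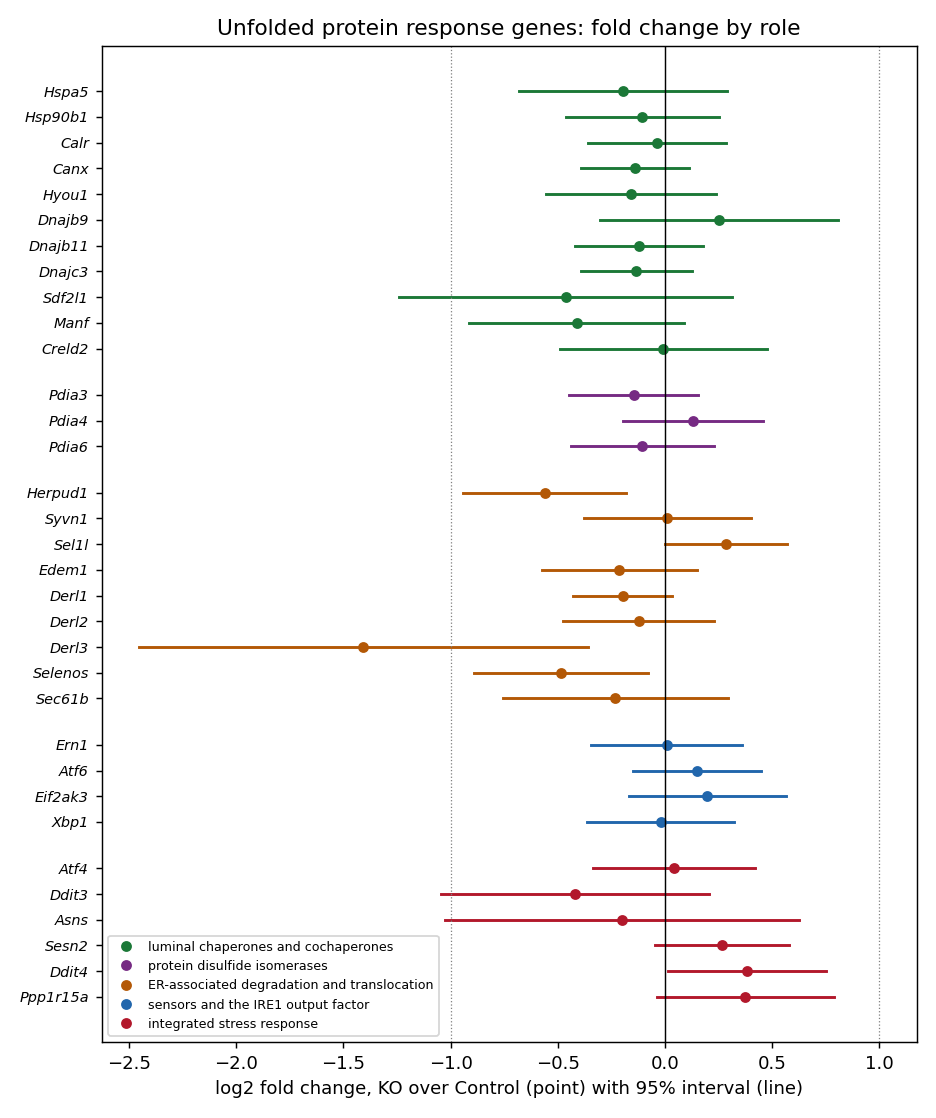
Log2 fold change of each of the 33 tested genes, KO over Control (point), with its 95% interval (line), grouped by role; dotted lines mark a 2-fold difference. The intervals of Herpud1, Derl3, Selenos, Sel1l and Ddit4 leave out 0 before adjustment, and Derl3 has the widest.

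The 11 luminal chaperones held the largest summed level of the 5 classes, at 2185 to 3119 CPM in KO and 2604 to 3339 CPM in Control, and 0 of 11 passed the test. This is a sum over more genes than any other class has, not a level per gene. Their median log2 fold change was -0.13, with 10 negative and 1 positive. Hspa5 (ENSMUSG00000026864, chromosome 2, 34771970 to 34777547, plus strand, GRCm38), which binds unfolded chains and restrains the sensors, had 758, 545, 389 and 711 CPM in the KO libraries (in each list of 4, replicates 1 to 4 in order), against 687, 595, 867 and 602.5 CPM in Control. The lowest library was a KO and the highest a Control, and the groups overlapped. Its log2 fold change was -0.20 ± 0.22 (SE, 95% interval -0.68 to 0.29, edgeR adjusted p = 0.7). Hsp90b1 stood at 566, 509, 425 and 621 CPM in KO and 641, 461, 636 and 545 CPM in Control, a log2 fold change of -0.11 ± 0.16 (edgeR adjusted p = 0.777). Calr stood at 601, 537, 485 and 691 CPM in KO and 546, 534.5, 648 and 650.0 CPM in Control (log2 -0.04 ± 0.14, edgeR adjusted p = 0.917). Both pairs of groups overlapped, and with library totals as the scaling Hsp90b1 and Calr had positive values (0.05 and 0.11).

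Dnajb9, a J-domain partner of BiP that represses IRE1 and is a target of spliced XBP1, stood at 43.5, 62.2, 45.5 and 102 CPM in KO, against 56.5, 58.1, 51.7 and 46.2 CPM in Control. KO replicates 2 and 4 lay above the Control range, KO replicate 4 far above, and 2 KO libraries lay below it. The log2 fold change was 0.25 ± 0.25 (edgeR adjusted p = 0.664), and -0.08 without KO replicate 4. The membrane lectin calnexin (Canx) had -0.14, the nucleotide exchange factor Hyou1 -0.16 and the J-domain proteins Dnajb11 and Dnajc3 -0.12 and -0.13. Sdf2l1, which partners Dnajb11, had -0.46 ± 0.35, the secreted ER stress protein Manf -0.41 ± 0.23 and Creld2, also a secreted ER stress protein, -0.01 ± 0.22 (SE). Manf shares exon bases with Dcaf1 on the opposite strand and Rbm15b on its own, which held 68.5% and 47.5% as many counts, so its value is uncertain. The values of Canx, Dnajb11, Dnajc3 and Creld2 turned positive with library totals.

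Several of these promoters hold a known element. The ER stress response element (ERSE), through which ATF6 with the factor NF-Y raises transcription, reads CCAAT, then 9 bases of any kind, then CCACG, and was described on the promoters of genes of this class. RefSeq windows (GRCm38.p6) ran from 250 bases before to 50 after a gene's start. In these the ERSE had an exact match, on either strand, in 9 of the 31 members with a window (29.0%). Among all 27025 genes with a window the share was 0.137%, and among all 32851 windows 0.119%. The 9 were Hspa5, Hsp90b1, Calr, Canx, Dnajc3, Creld2, Pdia6, Syvn1 and Derl3, and Hsp90b1 held 2 matches. The first 6 are among the 11 luminal chaperones, and the last 3 belong to other classes. The related ERSE-II (ATTGG, 1 base, CCACG) had a match in Herpud1 and Dnajb11 (6.45% of members with a window), in 0.0444% of genes and in 0.0365% of windows. That of Dnajb11 lay after its start. The stretches below are printed on the gene's own strand, with the element in capitals. Where the match is on the other strand the element reads CGTGG, 9 bases, ATTGG. The outer blocks are alike because the search required them, and the ERSE-II of Herpud1 has 1 base between its blocks. In Hspa5 the element ends 47 bases before the RefSeq start, and the Hsp90b1 match shown is the one farther from its start.
Hspa5 (chr2:34772020-34772048, plus strand): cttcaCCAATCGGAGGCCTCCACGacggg
Hsp90b1 (chr10:86705618-86705676, minus strand): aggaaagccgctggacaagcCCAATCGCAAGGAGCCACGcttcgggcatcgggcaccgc
Calr (chr8:84847055-84847113, minus strand): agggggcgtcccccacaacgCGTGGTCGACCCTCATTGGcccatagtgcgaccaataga
Canx (chr11:50325780-50325838, minus strand): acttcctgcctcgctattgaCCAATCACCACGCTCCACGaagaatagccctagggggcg
Pdia6 (chr12:17266471-17266529, plus strand): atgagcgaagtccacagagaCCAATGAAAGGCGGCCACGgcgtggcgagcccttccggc
Syvn1 (chr19:6046512-6046570, plus strand): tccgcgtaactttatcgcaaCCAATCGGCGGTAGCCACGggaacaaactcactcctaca
Derl3 (chr10:75893222-75893280, plus strand): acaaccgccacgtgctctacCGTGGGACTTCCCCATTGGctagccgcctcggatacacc
Herpud1, ERSE-II (chr8:94386357-94386407, plus strand): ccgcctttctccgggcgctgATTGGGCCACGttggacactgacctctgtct

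The 11 members with ERSE or ERSE-II had a median log2 fold change of -0.12, from -1.41 (Derl3) to 0.01 (Syvn1), and the 18 other tested members with a window had -0.01. Across the genome 37 genes had an ERSE match, and 17 of them were tested, of which 9 are the members just named. Of the 17, 0 were higher and 0 lower in KO at the same threshold by edgeR. The 2 sets of members share libraries and scaling, and the difference between them was not tested. The XBP1 element UPRE (TGACG, then TGG) had no match in a member window, beside 0.714% of all genes and 0.676% of all windows.

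The disulfide isomerases, which form and shuffle disulfide bonds in new proteins, gave 0 calls among 3. Pdia3 had a log2 fold change of -0.15 ± 0.13, Pdia4 0.13 ± 0.15 and Pdia6 -0.11 ± 0.15 (SE). Those of Pdia3 and Pdia6 turned positive with library totals, and Pdia6 shares exon bases with Atp6v1c2 on the opposite strand. Summed over the 3 genes, levels ran from 700.2 to 903 CPM in KO and from 704 to 958 CPM in Control, so the ranges overlapped almost wholly.

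The degradation and translocation genes held 4 of the 5 members with an unadjusted p under 0.05, and 0 of 9 passed after adjustment. These 4 are 44.4% of the class, beside 13.9% of all genes, and 22.2% of the class did not overlap between groups, beside 9.44% of all genes. Summed over the 9 genes, levels ran from 475 to 553 CPM in KO and from 560 to 602 CPM in Control, without overlap. Such a sum weighs the higher genes most, and its difference was not tested. Herpud1 (ENSMUSG00000031770, chromosome 8, 94386438 to 94395377, plus strand), a membrane scaffold of the HRD1 ligase complex, stood at 114, 101, 101 and 85.5 CPM in KO, against 118, 189, 164 and 122 CPM in Control. All 4 KO libraries lay below all 4 Control libraries, by a narrow margin between KO replicate 1 and Control replicate 1. The log2 fold change was -0.56 ± 0.17 (SE, 95% interval -0.94 to -0.18, edgeR adjusted p = 0.161), -0.57 by DESeq2 (adjusted p = 0.0664) and -0.66 by limma-voom with library quality weights (adjusted p = 0.0355). Over the 19 other settings the adjusted p ran from 0.0355 to 0.43, with the value negative throughout. Control replicate 2, the highest library, was also the highest of all 8 for the immediate early gene Ier3, at 413 CPM, and for Nr4a1, singled out after its values were seen. Nr4a1 had 520 CPM there, while KO libraries held 5.74 to 32.1 CPM and Control replicates 1, 3 and 4 held 3.76 to 13.1 CPM. Ier3 and Nr4a1 come from a list of 14 immediate early genes, whose median log2 fold change was 0.72, with 10 positive and 4 negative. Without Control replicate 2 the log2 fold change of Herpud1 was -0.42. The part of these genes in the result was not tested.

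Derl3 (chromosome 10, 75893413 to 75895941, plus strand), a membrane protein of the derlin family, which helps move misfolded proteins out of the ER, stood at 0.514, 0.270, 0.551 and 0.401 CPM in KO, against 0.585, 0.674, 1.72 and 1.75 CPM in Control. These levels rest on few reads, 25, 7, 14 and 8 counts in KO and 12, 28, 33 and 35 in Control. The groups did not overlap, but KO replicate 3 and Control replicate 1 were almost level. Its log2 fold change was -1.41 ± 0.47 (SE, edgeR adjusted p = 0.206), the largest in size among the 33 tested members. Control replicates 3 and 4, its highest libraries, also had the highest summed plasma and B cell markers (6 genes), at 13.3 and 8.17 CPM. That sum ran from 0.351 to 4.98 CPM in KO and from 0.634 to 13.3 CPM in Control. Igkc made up most of it in Control replicates 3 and 4. Jchain was also highest in these libraries, at 1.88 and 1.45 CPM, beside 0.251 to 1.17 CPM in KO. Other genes of the list did not follow. Ighm was at 0 CPM in Control replicate 3 and 0.501 CPM in Control replicate 4, and Cd79a was highest in KO replicate 4 (0.100 CPM). Mzb1 was at 0.209 CPM in Control replicate 3 and 0.206 CPM in KO replicate 1. The sum in KO replicate 1 (4.98 CPM) exceeded those in Control replicates 1 and 2 (0.634 and 2.38 CPM). The plasma cell receptor Tnfrsf17 was at 0 in every KO library and in 3 of 4 Control libraries. The part of such cells in the result was not tested. Its paralogues Derl1 and Derl2 were far higher, at 69.7 ± 3.88 and 43.8 ± 7.32 CPM in KO and 79.9 ± 6.77 and 47.7 ± 8.05 CPM in Control (SD, n = 4 each), with log2 fold changes of -0.20 ± 0.10 and -0.12 ± 0.16 (SE). That of Derl2 turned positive with library totals, and Derl2 shares exon bases with Mis12 on the opposite strand.

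Selenos, a selenoprotein that links the derlins to the extraction ATPase, stood at 59.4, 60.6, 45.2 and 52.6 CPM in KO and 106, 58.9, 70.3 and 69.9 CPM in Control. The groups overlapped only through Control replicate 2, and Control replicate 1 was the highest library. The log2 fold change was -0.49 ± 0.18 (edgeR adjusted p = 0.27). Leaving out 1 library at a time gave -0.59 to -0.29. Sel1l, the adaptor that stabilises the ligase HRD1, stood at 152, 125, 130 and 144 CPM in KO and 91.3, 125, 118 and 118 CPM in Control. Control replicate 1 was its lowest library, and leaving out 1 library at a time gave log2 fold changes of 0.19 to 0.34. Sel1l was the only member of this class with a positive value at an unadjusted p under 0.05 (log2 0.29 ± 0.13, edgeR adjusted p = 0.357). Its ligase partner Syvn1 (HRD1) had 0.01 ± 0.17, the mannose-trimming factor Edem1 -0.21 ± 0.16 and the translocon subunit Sec61b -0.23 ± 0.24 (SE). Syvn1 shares exon bases with Mrpl49 on the opposite strand, which held as many counts.

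**Figure D3:**
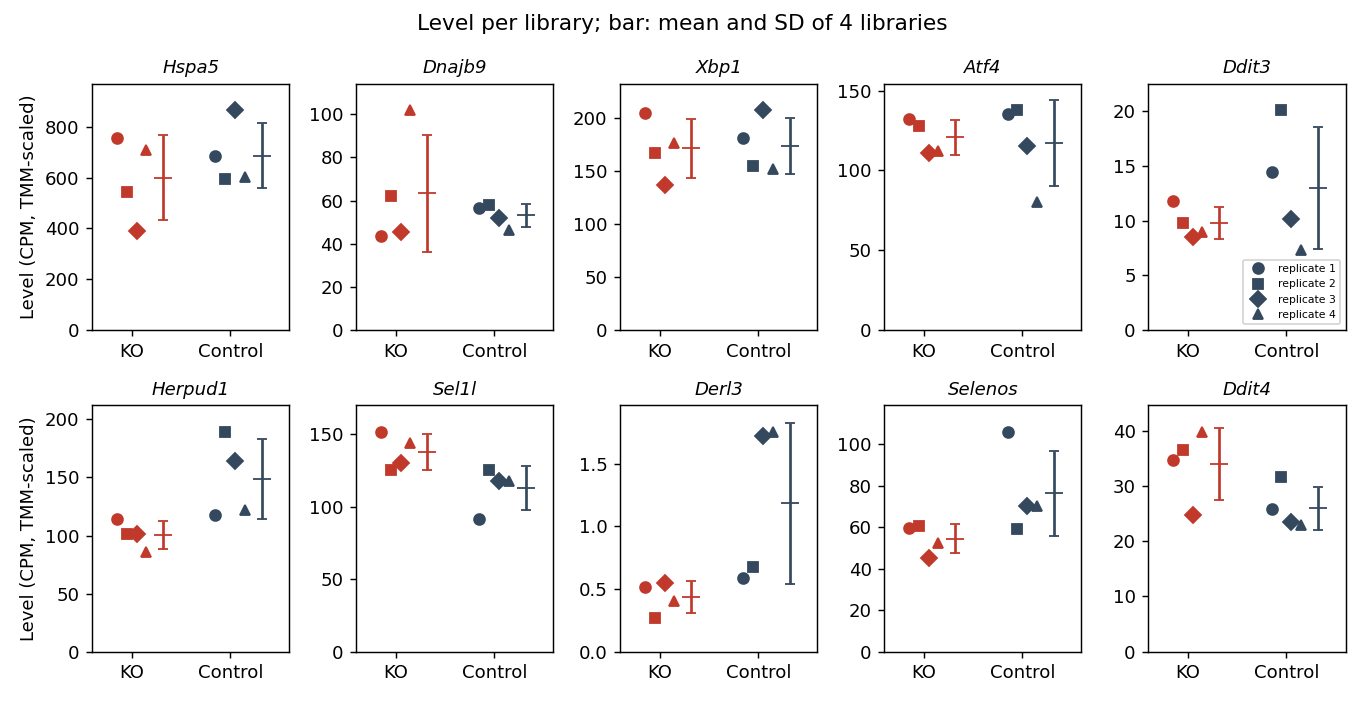
Level of 10 genes in each library (CPM on TMM-scaled library sizes, axis from 0), with KO in red on the left and Control in blue on the right of each panel; symbols mark replicates 1 to 4 and the bar is the mean with its SD. Herpud1 and Derl3 are the genes whose groups do not overlap, Hspa5, Xbp1 and Atf4 overlap widely, and KO replicate 4 stands alone for Dnajb9 at 102 CPM.

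None of the sensors differed beyond the spread of their libraries, with 0 calls among 4 genes. Ern1 stood at 28.5, 26.9, 35.1 and 27.4 CPM in KO and 21.4, 31.7, 30.4 and 33.8 CPM in Control (log2 0.01 ± 0.16, edgeR adjusted p = 0.987). Atf6 stood at 68.2, 60.0, 66.9 and 69.0 CPM in KO and 45.1, 64.2, 64.5 and 64.7 CPM in Control (log2 0.15 ± 0.13, adjusted p = 0.634 by edgeR). Eif2ak3 stood at 41.2, 51.4, 40.2 and 64.0 CPM in KO and 36.2, 41.8, 46.1 and 47.6 CPM in Control (log2 0.20 ± 0.16, edgeR adjusted p = 0.605). Groups overlapped for each, and Control replicate 1 was the lowest library for all 3. Xbp1, the transcript that IRE1 splices, stood at 204.5, 167, 137 and 176 CPM in KO and 181, 154.5, 207 and 151 CPM in Control (log2 -0.02 ± 0.15, edgeR adjusted p = 0.964). The sign of Xbp1 turned with library totals, at 0.14. Spliced and unspliced Xbp1 are counted together here.

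The integrated stress response genes gave 0 calls among 6 tested. Atf4, the transcription factor translated when eIF2 alpha is phosphorylated, stood at 132, 127.5, 111 and 112 CPM in KO and 135.5, 138, 115 and 80.0 CPM in Control (log2 0.04 ± 0.17, edgeR adjusted p = 0.925). Its target Ddit3, which encodes CHOP, stood at 11.8, 9.76, 8.50 and 8.92 CPM in KO and 14.5, 20.1, 10.1 and 7.32 CPM in Control. Control replicates 1 and 2 lay above every KO library and Control replicate 4 below. The log2 fold change was -0.42 ± 0.28 (edgeR adjusted p = 0.522). Ddit3 shares exon bases with a second Ddit3 identifier on its own strand and with Mars on the opposite strand, which held 338% as many counts, so its reads are uncertain without a known strand setting.

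Chac1, a glutathione-degrading enzyme raised by ATF4 and CHOP, had 5, 3, 4 and 9 counts in KO and 3, 3, 1 and 1 in Control. Trib3, a pseudokinase that feeds back on this arm, had 15, 7, 3 and 2 counts in KO and 7, 7, 0 and 2 in Control, where the 0 allows up to 0.157 CPM (3 counts, counting error only). These 2 genes were too low to be tested. Asns stood at 2.47, 5.94, 5.98 and 7.97 CPM in KO and 9.31, 5.05, 3.92 and 7.27 CPM in Control (log2 -0.20 ± 0.37, edgeR adjusted p = 0.821). The ATF4 composite element (CARE: TGATG, 1 base, AA, 1 base) had a match in the windows of Asns, Chac1, Herpud1 and Trib3. These are 12.9% of the members with a window, beside 4.5% of all genes and 3.95% of all windows. The match of Trib3 lay after its start. The stretches of Asns and Chac1, 2 established ATF4 targets, are shown on the gene's own strand with the element in capitals, read as its reverse complement in Chac1.
Asns (chr6:7693214-7693242, minus strand): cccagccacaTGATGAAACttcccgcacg
Chac1 (chr2:119351028-119351076, plus strand): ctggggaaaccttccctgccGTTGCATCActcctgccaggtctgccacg

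The last 3 genes of the arm had positive values below the threshold. Ddit4, an inhibitor of mTORC1 that also answers to low oxygen and glucocorticoids, stood at 34.8, 36.4, 24.7 and 39.8 CPM in KO and 25.9, 31.5, 23.5 and 23.0 CPM in Control. A trio of KO libraries lay above all Control libraries and KO replicate 3 within their range (log2 0.38 ± 0.17, edgeR adjusted p = 0.341). Ppp1r15a, the phosphatase subunit that reverses eIF2 alpha phosphorylation, averaged 31.1 ± 5.95 CPM in KO and 23.9 ± 5.04 CPM in Control (SD, n = 4 each, log2 0.37 ± 0.19, edgeR adjusted p = 0.399). Sesn2, a stress-induced inhibitor of mTORC1, averaged 46.2 ± 4.60 CPM in KO and 38.4 ± 6.94 CPM in Control (SD, n = 4 each, log2 0.26 ± 0.14, edgeR adjusted p = 0.426).

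The members differed in level among libraries of 1 group, and KO replicates 3 and 4 lay at the ends for many of them. KO replicate 3 was the lowest of the 4 KO libraries for 20 of the 35 genes (57.1%), where it was the lowest for 29.0% of all genes tested. KO replicate 4 was the highest for 19 (54.3%), beside 24.9% of all genes. Among the 11 luminal chaperones KO replicate 3 was lowest for 8, and their median distance from the KO mean was -0.39 on the log2 scale in KO replicate 3 and 0.24 in KO replicate 4. The median over all genes was 0.01 and 0.00 in the same libraries. The highest KO library exceeded the lowest by 1.95-fold for Hspa5, 2.85-fold for Sdf2l1, 1.86-fold for Manf and 1.90-fold for Creld2. Among Control libraries the same ratios were 1.46, 2.45, 1.72 and 1.62. Canx and Dnajc3 varied least in this class, at 1.17-fold and 1.30-fold in KO. The mitochondrial share of counts was 15.4%, 16.4%, 18.4% and 13.4% in KO replicates 1 to 4, so the libraries with high chaperones had the lower share. In Control the order was not the same, and the chaperones had their lowest median (-0.18) in Control replicate 2, the library with the lowest mitochondrial share. Some marker sums of other cell types were also highest in KO replicate 3 and lowest in KO replicate 4 among the KO libraries. Those of leukocytes, intercalated cells, plasma and B cells and injured tubule were not. Proximal tubule markers summed to 9893 CPM in KO replicate 3 and 3730 CPM in KO replicate 4, and thick ascending limb markers to 5475 and 2739 CPM in the same order. Of these sums Kap held 7288 and 2598 CPM and Umod 4424 and 2427 CPM, though Umod was highest in KO replicate 1 (4545 CPM). Endothelial markers summed to 45.2 and 6.27 CPM and podocyte markers to 71.5 and 1.85 CPM, again in KO replicates 3 and 4. The part of RNA quality or of other cell types in this spread was not tested.

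**Figure D4:**
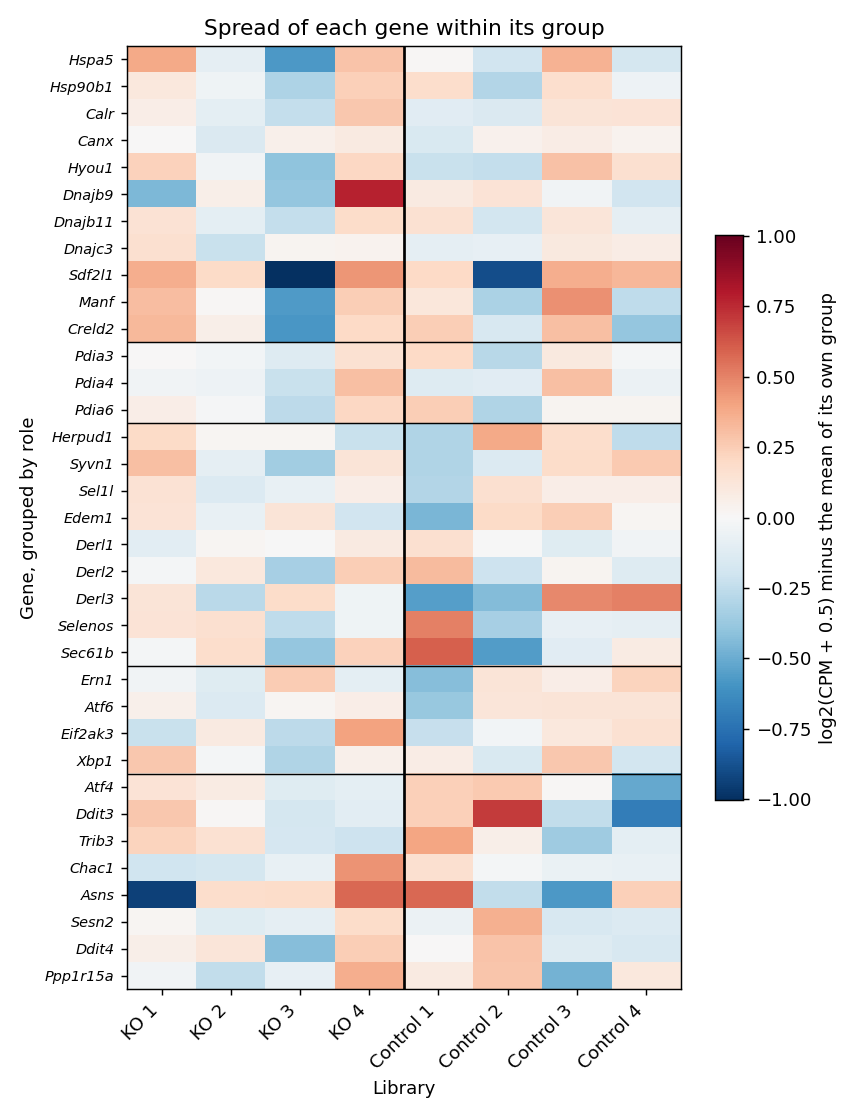
Distance of each gene from the mean of its own group, as log2(CPM + 0.5), in each of the 4 KO libraries (left) and 4 Control libraries (right); red is above and blue below the group mean, and black lines part the roles. The column of KO replicate 3 is blue through most chaperones (median -0.39) and that of KO replicate 4 mostly red (median 0.24).

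Other lists of the pathway gave 0 or 1 call each by edgeR. Among 33 further translocation, folding and glycan enzymes, 1 rose, 0 fell and 32 did not pass, with a median log2 fold change of -0.07. The share called was 3.03% of this list, beside 2.21% of all genes. The gene that rose was Ero1l, the oxidase that recharges disulfide isomerases and also a gene raised by low oxygen. It stood at 40.9, 44.2, 40.0 and 48.5 CPM in KO and 22.7, 31.4, 30.7 and 27.4 CPM in Control, with no overlap (log2 0.63 ± 0.13, edgeR adjusted p = 0.0410). The call was lost without any 1 of the 8 libraries. Of this list 27.3% did not overlap between groups, beside 9.44% of all genes, with 4 genes higher in KO and 5 lower. Among 20 further degradation genes 0 rose and 0 fell. Of these, Rnf5 had -0.27 and Edem3 0.38, with adjusted p-values of 0.384 and 0.409 by edgeR. Among 21 further transducers and regulators 0 passed by edgeR, with Crebrf, a repressor of the factor CREB3, at -0.59 ± 0.16 (adjusted p = 0.117) and the antioxidant factor Nfe2l2 at 0.29 ± 0.12 (adjusted p = 0.304). Among 38 further ATF4 and integrated stress response genes 0 passed, with a median close to 0, 1 at an unadjusted p under 0.05 (Mthfd2, a mitochondrial folate enzyme, at 0.34) and Aldh18a1 next at 0.39.

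Stress programmes outside the ER were set beside them. Of 19 cytosolic heat shock genes 0 rose and 1 fell, the small heat shock protein gene Cryab, at 10.7 ± 2.84 CPM in KO and 23.0 ± 4.80 CPM in Control (SD, n = 4 each, edgeR adjusted p = 0.0373), with a 95% interval of -1.59 to -0.61 for the log2 fold change. Its call, 5.26% of the list beside 2.21% of all genes, was lost without KO replicate 2 or 4 and without Control replicate 1, 3 or 4. Of 12 mitochondrial chaperones and proteases 0 passed, with a median of -0.24 and 10 of 12 negative, among them Htra2 at -0.38 and Hspe1 at -0.45. Over all 14268 genes tested 7547 were negative. In this list 33.3% had an unadjusted p under 0.05, beside 13.9% of all genes. The groups did not overlap for 25% of it, beside 9.44% of all genes, and all of these were lower in KO. The mean mitochondrial share of counts, given above, was also lower in KO, and its part was not tested. Of 14 immediate early genes, which also answer to handling of tissue, 1 rose and 1 fell, with a median log2 fold change of 0.72, 10 positive and 4 negative. The calls are 14.3% of this list, beside 2.21% of all genes. An unadjusted p under 0.05 was reached by 50% of the list, beside 13.9% of all genes. Fosb stood at 20.7 ± 6.46 CPM in KO and 6.07 ± 1.69 CPM in Control (log2 1.76 ± 0.27, edgeR adjusted p = 0.0142), and Ier3 at 44.3 ± 16.5 CPM in KO and 199 ± 148 CPM in Control (SD, n = 4 each, log2 -2.17 ± 0.47, edgeR adjusted p = 0.0490). The call of Fosb was lost without Control replicate 4, and that of Ier3 without any 1 library other than KO replicate 3.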

How the data were processed

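Per the labels' protocols, RNA came from 1000 sorted fragments per library. The authors deposited whole-number read counts per Ensembl gene, with no normalization. STAR 2.7.4a, fastp 0.20.0, bcl2fastq 2.20 and the build GRCm38.p6 are named per the submitters' processing notes. Which program counted the reads, with which annotation and strand, is not given in the sources used here. Groups were taken from the genotype label. Replicate numbers follow the order of deposit and pair nothing. Each library has its own animal number, and beyond genotype, transgenes and treatment the labels say no more of the animals. The p-values thus rest on the spread between these libraries. No pair of libraries of 1 group was alike within sampling noise (chi-square per degree of freedom of at least 28.4).

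Names, coordinates and exon lengths came from GENCODE vM21, in which 42347 of 42416 identifiers had a name. TPM used these lengths with the deposited counts. Of several identifiers with 1 symbol the one with most counts was used. Genes were filtered by filterByExpr, scaled by TMM and tested for a difference in either direction by quasi-likelihood in edgeR 4.0.16 (R 4.3.3), adjusted by Benjamini-Hochberg over all genes, with all 8 libraries and genotype alone. SEs are the fold change over the square root of F. The test was checked on simulated counts at the same threshold. There it recovered 13.4% of 1.5-fold, 55.2% of 2-fold and 95.5% of 4-fold changes, and 9.17% of its calls were false. Most changes of 1.5-fold would thus be missed. Alternatives included DESeq2 1.42.0 and limma 3.58.1. The members and lists were chosen with earlier results of these data known. The 35 genes were all accounted for. Values per library are given for 14 genes set by name and those with an unadjusted p under 0.05, and from other lists up to 4 genes past the threshold or the 2 with the smallest p. Motifs were exact matches in RefSeq windows of 31 members.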

Additional observations from a re-analysis of the deposited data

Results flagged for a closer look

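A library stood apart from the other 3 of its group in 4 of 70 sets examined (35 genes in 2 groups), by the ratio of its gap to the whole range, which chance exceeds in about 1 of 20 sets. Chac1 was at 0.451 CPM in KO replicate 4 and between 0.103 and 0.157 CPM in the other KO libraries, which is 9 counts against 3 to 5. Pdia4 was at 119 CPM in Control replicate 3, while Control replicates 1, 2 and 4 held 88.6 to 93.0 CPM. Atf6 was at 45.1 CPM in Control replicate 1, against 64.2 to 64.7 CPM. Sesn2 was at 48.7 CPM in Control replicate 2, against 34.0 to 36.5 CPM.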

How the results depend on the processing

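No paired analysis was possible because the labels give no replicate numbers that match KO to Control animals, and the block for number series used below is not a pairing. The count of 0 members higher held under the 19 other settings, and 0 lower under all but limma-voom (1, Herpud1, adjusted p = 0.0355). Of 626 member values, 581 kept their direction and side of the threshold. The 44 that changed sign belong to 16 genes, whose log2 fold changes in the main edgeR fit were each within 0.25 of 0. With library totals, a scaling that shifts all genes, Hsp90b1 was 0.054, Calr 0.11, Canx 0.0073, Dnajb11 0.038, Dnajc3 0.015, Creld2 0.16, Pdia3 0.012, Pdia6 0.055, Derl2 0.040 and Xbp1 0.14 (log2). In the 5 animals of the series of numbers that holds most libraries, Pdia6 was 0.0059, Syvn1 -0.12, Sec61b 0.16, Ern1 -0.071, Atf4 -0.13 and Asns 0.54. Blocking on number series gave Calr 0.0058 and Atf4 -0.093, and leaving out files named with an index gave Syvn1 -0.15. With limma-voom Syvn1 was -0.075, Sec61b 0.021 and Ern1 -0.10, and with a 5 CPM filter Syvn1 was -0.0057 and Ern1 -0.0067. Leaving out 1 library at a time, values ran from -0.14 to 0.026 (Calr), -0.079 to 0.38 (Dnajb9), -0.13 to 0.14 (Creld2), -0.11 to 0.11 (Syvn1), -0.40 to 0.0051 (Sec61b), -0.12 to 0.081 (Ern1), -0.12 to 0.077 (Xbp1), -0.10 to 0.13 (Atf4) and -0.42 to 0.049 (Asns). Apart from the scaling, the cause was not tested.

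Over all genes, 191 higher and 125 lower became 443 and 315 by DESeq2, 62 and 78 with the 5 CPM filter, 21 and 35 without the files with an index, 5 and 24 with the block, and 3 and 13 in the 5 animals of 1 number series. Higher calls were 105 with a term for the index, and lower calls 233 by limma-voom. Leaving out 1 library gave 15 to 257 higher and 21 to 131 lower. The call of Ero1l was also lost (0 calls) with the 5 CPM filter, the index term, the files with no index, the block and the 5 animals, and that of Cryab with these save the filter. Leaving out 1 library gave 0 calls for the list of Ero1l, 0 to 1 for that of Cryab, and 0 to 4 higher and 0 to 1 lower immediate early genes. Those gave 2 higher without indexed files, 0 higher with the block and in the 5 animals, and 0 lower in these, with library totals, limma-voom, the 5 CPM filter and the index term. DESeq2 called 1 regulator lower. ERSE-II matched 1 member in the window before the start only, a shorter window. Genes under about 1 CPM, such as Chac1, Trib3 and, in KO libraries, Derl3, are limited by depth.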
